A study of Mus musculus with 6 samples.

Results

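The genes described are 33 mouse genes of sterol and fatty acid synthesis, chosen by name from a count table of 12579 genes in E14.5 fetal liver cells. They fall into 6 regulators of the pathway, 18 enzymes that lead from acetyl-CoA through mevalonate to cholesterol, and 9 enzymes of fatty acid synthesis. All 33 were present in the table and all 33 were tested. RNA-seq of Prl2-/- fetal liver cells from E14.5 embryos (3 libraries) was set against that of Prl2+/+ fetal liver cells of the same age (3 libraries). PRL2 is a small protein tyrosine phosphatase encoded by Ptp4a2. The labels call the cells haematopoietic stem and progenitor cells and describe no sorting step, no Cre driver, no other allele and no treatment. Each fetus was genotyped, but no label ties a library to 1 fetus, so p-values reflect the variation among these 6 libraries, some of which may be technical.

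Sterol synthesis is controlled by a feedback loop in the endoplasmic reticulum. The SREBP transcription factors are made as membrane proteins bound to SCAP, an escort protein that senses cholesterol. When sterol is plentiful, INSIG proteins hold the complex in the endoplasmic reticulum. When sterol is scarce, the complex moves to the Golgi, proteases release the SREBP, and it enters the nucleus to switch on the enzymes of the pathway. The fetal liver is a site of blood formation in which progenitors divide and need membrane lipid, and its hepatoblasts are a second cell type with an active lipid metabolism.

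The libraries held 29525301 to 37026282 counts in Prl2-/- and 25965111 to 33613949 counts in Prl2+/+. The targeted gene matched the labels, since Ptp4a2 was counted 44, 38 and 38 times in Prl2-/- and 8088, 9906 and 8135 times in Prl2+/+ (log2 ratio -8.02 ± 0.098, SE, edgeR adjusted p = 3.31e-07). All 14 progenitor markers were measured and 0 passed in edgeR, with 9 estimates above 0 and 5 below, from -0.71 for Mecom to 0.33 for Hoxa9 on the log2 scale. Their summed level was 1713 to 1840 CPM in Prl2-/- and 1646 to 1832 CPM in Prl2+/+. Of 14 megakaryocyte markers 13 had estimates above 0 (median 0.29), and of 14 granulocyte and monocyte markers 10 did (median 0.19). At an unadjusted p under 0.05 in edgeR stood 1 megakaryocyte marker, Selp (7.14%), and 3 granulocyte and monocyte markers (21.4%). Among all genes tested the share was 4.60%. In either list 0 markers were past the adjusted threshold. CPM is a gene's count scaled to library size, here after TMM scaling, which corrects for differences in library composition. Markers of hepatoblasts, erythroid cells and B cells differed widely between libraries of the same genotype. All 19 measured hepatoblast markers had estimates below 0 (median -1.16, median SE 1.71). Of 10 B cell markers 9 had estimates above 0 (median 0.27, median SE 0.69). Erythroid markers split into 8 above and 6 below, and macrophage markers into 6 above and 7 below. None of the markers in these 4 lists passed in edgeR. Of 20 listed hepatoblast markers 19 were measured, and their summed level was 67.6, 2747 and 342.6 CPM in Prl2-/- replicates 1 to 3 and 4838, 947.8 and 157.8 CPM in Prl2+/+ replicates 1 to 3. Erythroid marker sums were 596.2, 1587 and 728.6 CPM in Prl2-/- replicates 1 to 3 and 874.7, 1224 and 608.1 CPM in Prl2+/+ replicates 1 to 3. B cell marker sums were 419.8, 72.5 and 192.9 CPM in Prl2-/- and 109.5, 129.5 and 335.3 CPM in Prl2+/+, in the same order. F2, the prothrombin gene, had 0 counts in Prl2-/- replicate 1 and Serpina1a, an antitrypsin gene, had 0 counts in Prl2+/+ replicate 3. In bulk samples such as these, fewer cells of a type and less RNA per cell cannot be told apart.

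The sterol and fatty acid genes were expressed at nearly the same level in both genotypes. None of the 33 passed the test for a difference between Prl2-/- and Prl2+/+ (edgeR quasi-likelihood test, Benjamini-Hochberg adjusted p of at least 0.899). Over all 12576 genes tested, 5 passed, which is 0.0398% (0.0159% higher and 0.0239% lower in Prl2-/-). At an unadjusted p under 0.05 there were 3 members, all lower in Prl2-/-, which is 9.09% of the members against 4.60% of all genes (2.62% lower and 1.97% higher). No member passed with DESeq2, the edgeR likelihood ratio test or limma-voom either, which called 0.286%, 0.167% and 0.0318% of all genes. The log2 ratio of Prl2-/- over Prl2+/+ was above 0 for 15 members and below 0 for 18, and its median was -0.019 beside -0.0007 over all genes tested.

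The intervals around these estimates were narrow. No member had an absolute log2 ratio above 0.203. For 32 of the 33 members, or 97.0%, the whole 95% confidence interval lay within a 1.5-fold change in either direction, against 66.6% of all genes tested. Among those 32 the bounds furthest from 0 were -0.42, for Sc5d, and 0.51, for Tm7sf2. The exception was Scd1. Between the highest and the lowest of the 6 libraries the members differed by a median of 1.20-fold, against 1.32-fold for all genes tested. Neither comparison with all genes was matched for expression level. All members but Scd1 had at least 185 counts in every library, whereas the table held genes down to 0.231 CPM in at least 3 libraries.

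**Figure D1:**
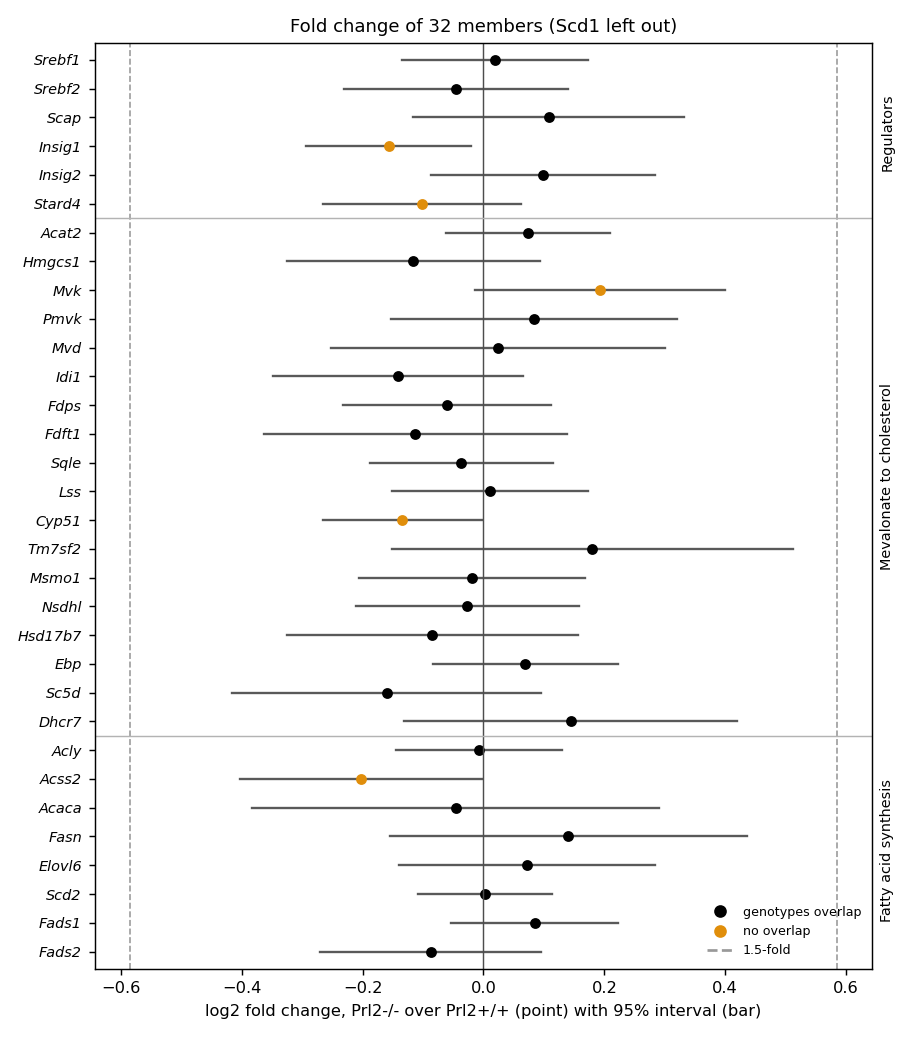
Log2 ratio of Prl2-/- over Prl2+/+ (x axis) for 32 members in order of their roles, with 95% confidence intervals as bars and 1.5-fold changes as dashed lines. Orange points mark the 5 members whose genotypes did not overlap. Every interval drawn lies between the dashed lines, and Scd1, whose interval ran from -1.66 to 1.502, is left out.

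As a whole the pathway took an almost constant share of the counts. The 33 genes together had 4270, 4239 and 4189 CPM in Prl2-/- and 4081, 4391 and 4223 CPM in Prl2+/+. The 6 regulators summed to 691.0, 685.0 and 661.1 CPM in Prl2-/- and 645.5, 720.7 and 678.8 CPM in Prl2+/+. The 18 sterol enzymes summed to 1648, 1780 and 1714 CPM in Prl2-/- and 1740, 1818 and 1715 CPM in Prl2+/+. The 9 fatty acid enzymes summed to 1931, 1775 and 1813 CPM in Prl2-/- and 1696, 1852 and 1829 CPM in Prl2+/+. For each of the 3 roles the genotypes overlapped. The hepatoblast marker sum spanned 67.6 CPM in Prl2-/- replicate 1 to 4838 CPM in Prl2+/+ replicate 1. Of these 2 libraries, the former had the highest fatty acid sum, 1931 CPM, and the latter the lowest, 1696 CPM. Most of that difference lay in 1 gene, Fasn, with 625 CPM in the former and 423 CPM in the latter. The sterol sum was lowest, at 1648 CPM, in Prl2-/- replicate 1, and the regulator sum, at 645.5 CPM, in Prl2+/+ replicate 1. The part of hepatoblasts in these sums was not tested.

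**Figure D2:**
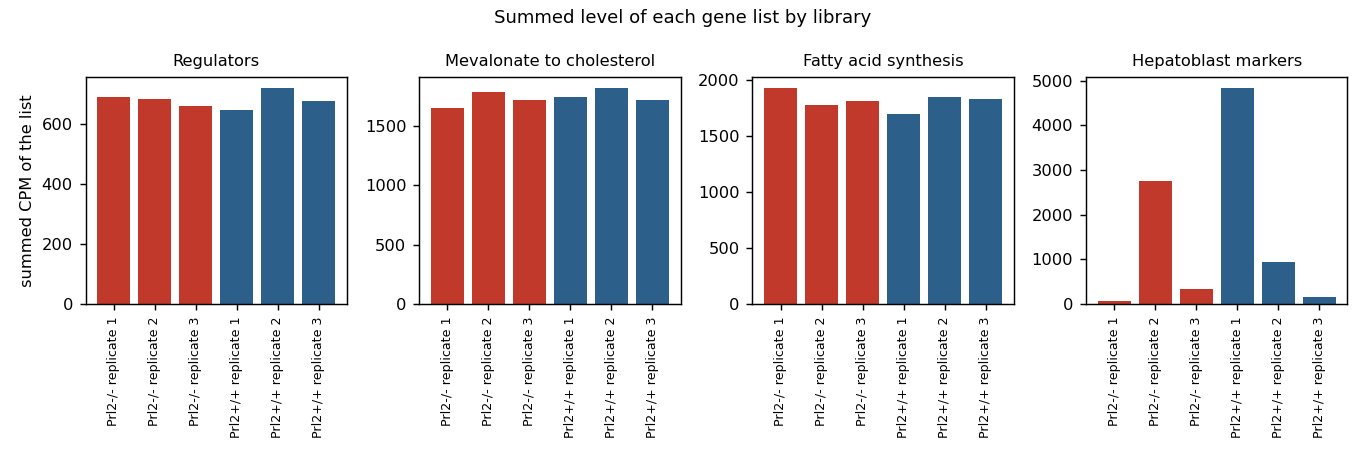
Summed CPM (y axis, from 0) of each list in the 3 Prl2-/- libraries (red) and the 3 Prl2+/+ libraries (blue). On these axes the 3 lists of the pathway are nearly level. The hepatoblast markers run from 67.6 CPM in Prl2-/- replicate 1 to 4838 CPM in Prl2+/+ replicate 1. The sum of the fatty acid enzymes is highest in the former library and lowest in the latter. Most of that difference is Fasn, with 625 CPM in the former and 423 CPM in the latter.

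Levels were compared between genes only per length, as RPKM, which is CPM divided by exon length in kilobases. Median levels of the roles were alike, at 26.6 RPKM for the regulators, 27.4 for the sterol enzymes and 29.7 for the fatty acid enzymes, averaged over the 6 libraries. Within a role the spread was much wider. Among the sterol enzymes the highest was Fdps, which makes farnesyl pyrophosphate, the branch point to sterols and other isoprenoids, at 288 RPKM (267 to 320 over the libraries). It was followed by Sqle, squalene epoxidase, at 74.5 RPKM and Msmo1, a sterol C4-methyl oxidase, at 67.9 RPKM; their ranges over libraries overlapped. The lowest were Hsd17b7, a sterol ketoreductase, at 7.77 RPKM and Tm7sf2, a sterol C14-reductase, at 5.38 RPKM. Among the fatty acid enzymes Acly, which makes cytosolic acetyl-CoA from citrate, led at 156 RPKM (149 to 162). Scd2, a stearoyl-CoA desaturase, followed at 64.6 RPKM and Fasn, fatty acid synthase, at 52.0 RPKM. Acaca, the acetyl-CoA carboxylase that starts fatty acid synthesis, stood at 3.12 RPKM and Elovl6, an elongase of long-chain fatty acids, at 7.17 RPKM. Acaca shares 6118 bases at 99.2% identity with Gm5182, a processed pseudogene, and Elovl6 and Fdps also have such pseudogenes. How reads that match both were counted is not stated, and their part in these levels was not tested. Lengths were those of the deposited table.

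**Figure D3:**
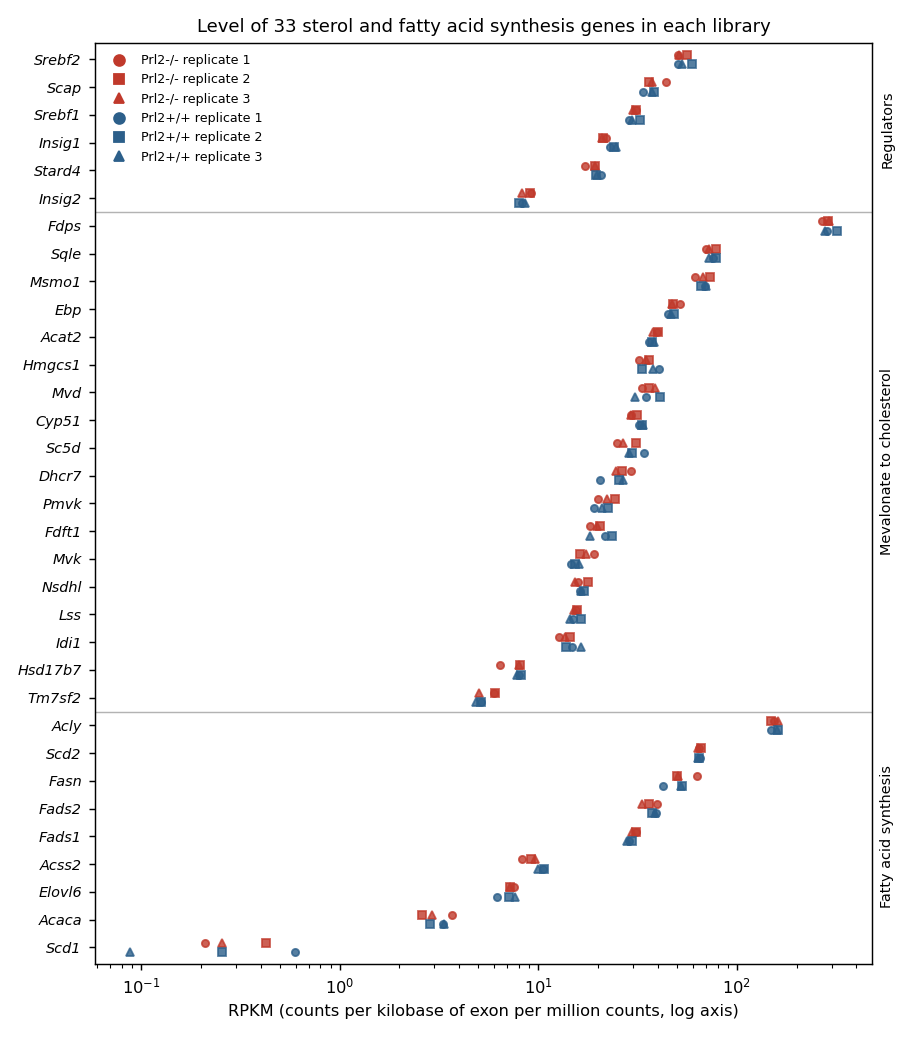
RPKM (x axis, log scale) of each of the 33 members in every library, with Prl2-/- in red drawn above Prl2+/+ in blue and symbols for the replicates. Genes are ordered by mean level within each role. Fdps at 288 RPKM and Acly at 156 RPKM lead, and Scd1 at 0.305 RPKM is lowest.

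None of the 6 regulators passed the test. Their estimates split 3 and 3 around 0, at a median of -0.013 on the log2 scale. Srebf2, the factor that mainly drives cholesterol genes, had 231, 256 and 233 CPM in Prl2-/- and 231, 271 and 242 CPM in Prl2+/+. Srebf1, the factor that mainly drives fatty acid genes, had 134, 133 and 129 CPM in Prl2-/- and 123, 140 and 127 CPM in Prl2+/+. The genotypes overlapped for both. Their log2 ratios were -0.046 ± 0.077 (SE) for Srebf2 and 0.019 ± 0.065 for Srebf1 (edgeR adjusted p of 0.915 and 0.958). Per length, Srebf2 exceeded Srebf1 by 1.63- to 1.82-fold in all 6 libraries. Scap had 189, 155 and 161 CPM in Prl2-/- and 144, 165 and 160 CPM in Prl2+/+; the highest value belonged to Prl2-/- replicate 1 and the lowest to Prl2+/+ replicate 1.

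The paralogues Insig1 and Insig2 differed in sign. INSIG1 is itself produced under SREBP control, so its transcript is part of the feedback. Insig1 (chromosome 5, 28071412 to 28078662, plus strand) had 58.2, 56.2 and 55.4 CPM in Prl2-/- and 60.8, 63.5 and 65.0 CPM in Prl2+/+. All 3 Prl2-/- values lay below all 3 Prl2+/+ values, although the nearest libraries, with 58.2 CPM (Prl2-/-) and 60.8 CPM (Prl2+/+), were close. Prl2-/- averaged 56.6 ± 1.46 CPM and Prl2+/+ averaged 63.1 ± 2.12 CPM (SD, n = 3 each). The estimate for Insig1 was -0.16 ± 0.057 (SE) on the log2 scale, with an unadjusted p of 0.0296 and an adjusted p of 0.899 in edgeR. Insig2 (chromosome 1, 121304353 to 121332589, minus strand) had 27.1, 26.9 and 24.5 CPM in Prl2-/- and 24.4, 23.7 and 25.2 CPM in Prl2+/+, so that the genotypes overlapped. Its log2 ratio was 0.099 ± 0.078 (edgeR adjusted p = 0.899). The ratio of Insig1 to Insig2 per length, looked at after the values were seen and therefore given with no test, came to 2.39, 2.33 and 2.52 for the Prl2-/- libraries, against 2.78, 2.99 and 2.88 for Prl2+/+. Stard4, a soluble carrier that moves sterol between membranes, had 51.5, 57.8 and 57.6 CPM in Prl2-/- and 61.9, 58.2 and 59.0 CPM in Prl2+/+. The nearest libraries, with 57.8 CPM (Prl2-/-) and 58.2 CPM (Prl2+/+), nearly met, and its log2 ratio was -0.10 ± 0.069 (edgeR adjusted p = 0.899).

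Beyond Insig1 and Stard4, 3 other members had no overlap between genotypes. In all there were 5 such members of 33, or 15.2%, of which 1 was higher and 4 were lower in Prl2-/-. Among all genes tested 11.1% had no overlap, 6.03% higher and 5.07% lower. With both directions together, the members' share was close to that background. The 4 lower of 33 were a larger share than 5.07%, and the 1 higher of 33 a smaller share than 6.03%. These counts are small, and the split by direction was not tested. The 4 lower members were Insig1, Stard4, Cyp51 and Acss2, and the higher one was Mvk. With DESeq2 size factors the count was 5 as well, and with upper quartile scaling or total counts alone it was 4, without Stard4.

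**Figure D4:**
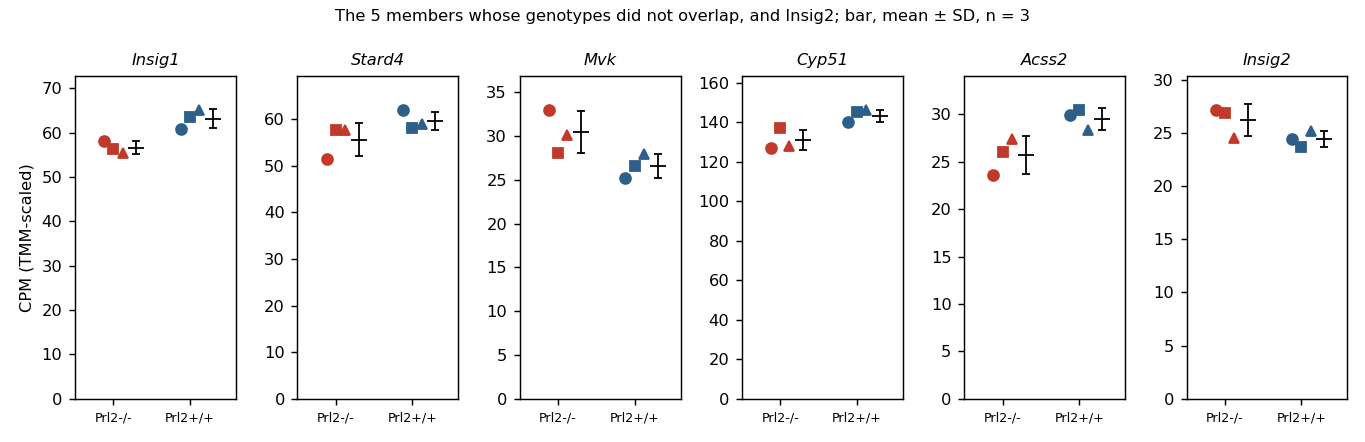
CPM (y axis, from 0) of the 5 members whose genotypes did not overlap and of Insig2, in Prl2-/- (red, left) and Prl2+/+ (blue, right). Circles, squares and triangles are replicates 1 to 3 and bars are mean ± SD (n = 3 each). Insig1 averaged 56.6 CPM in Prl2-/- and 63.1 CPM in Prl2+/+, and the differences are small beside the height of the axes.

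The early, mevalonate part of the pathway showed no shared direction. Acat2, which joins acetyl-CoA units, and Hmgcs1, which makes HMG-CoA, had log2 ratios of 0.073 ± 0.057 (SE) and -0.12 ± 0.088 (edgeR adjusted p = 0.899 for both). Mvk, mevalonate kinase (chromosome 5, 114444269 to 114460590, plus strand), had 32.9, 28.1 and 30.1 CPM in Prl2-/- and 25.2, 26.6 and 27.9 CPM in Prl2+/+. Every Prl2-/- library lay above every Prl2+/+ library, the nearest with 28.1 CPM (Prl2-/-) and 27.9 CPM (Prl2+/+), and the gene had a log2 ratio of 0.19 ± 0.087 (edgeR adjusted p = 0.899). The next kinase, Pmvk, was at 0.083 ± 0.099 and the decarboxylase Mvd at 0.024 ± 0.116. Idi1, the isomerase that activates isopentenyl pyrophosphate, was at -0.14 ± 0.087 and Fdps at -0.060 ± 0.072 (edgeR adjusted p of 0.899 and 0.904). Fdps had 390, 419 and 426 CPM in Prl2-/- and 416, 467 and 404 CPM in Prl2+/+, with overlapping genotypes. Hmgcs1 had 115, 129 and 125 CPM in Prl2-/- and 145, 119 and 136 CPM in Prl2+/+, a wider spread within the Prl2+/+ libraries than the difference between the genotypes.

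The sterol part of the pathway, after farnesyl pyrophosphate, held 0 genes past the threshold as well. Fdft1, squalene synthase, Sqle and Lss, lanosterol synthase, had log2 ratios of -0.11 ± 0.105 (SE), -0.036 ± 0.063 and 0.011 ± 0.068. Cyp51, the lanosterol demethylase (chromosome 5, 4080674 to 4104697, minus strand), had 127, 137 and 128 CPM in Prl2-/- and 140, 145 and 146 CPM in Prl2+/+. Its highest Prl2-/- library lay just under its lowest Prl2+/+ library, and Prl2-/- averaged 131 ± 5.19 CPM against 143 ± 3.10 CPM for Prl2+/+ (SD, n = 3 each). The log2 ratio was -0.13 ± 0.055, with an unadjusted p of 0.0460 and an adjusted p of 0.899 in edgeR. Tm7sf2 shares 532 bases of identical transcript with its neighbour Vps51. Cyp51 overlaps Akap9 on the opposite strand by 637 bases, and a library that does not mark strand cannot separate their reads there. The same holds for Fdft1 and Ctsb over 773 bases, for Srebf1 and Rai1 over 109 bases and for Acss2 and Ggt7 over 195 bases. Fdps shares 929 bases of identical transcript with Gm43738, an overlapping gene on its own strand. The later enzymes Msmo1, Nsdhl, Hsd17b7, Ebp, Sc5d, Dhcr7 and Tm7sf2 act on the sterol ring, and their log2 ratios ran from -0.16 ± 0.107 for Sc5d to 0.18 ± 0.139 for Tm7sf2. In between stood Hsd17b7 at -0.085 ± 0.101, Nsdhl at -0.027 ± 0.077, Msmo1 at -0.019 ± 0.079, Ebp at 0.069 ± 0.064 and Dhcr7 at 0.14 ± 0.115. Tm7sf2 rested on 185 to 318 counts per library, the fewest of any sterol enzyme. Over the 18 enzymes 0 passed, 8 estimates were above 0 and 10 below, and the median log2 ratio was -0.023.

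Promoter sequences were set beside these values because the pathway is defined by shared control. RefSeq windows on GRCm38.p6, running from 250 bases before to 50 bases after a start site, were at hand for 26 of the 33 members (34 windows in all); Sqle, Fdps, Scd2, Scd1, Fads1, Stard4 and Fdft1 were the others. Both strands were searched for TCACNCCAC, the core of the sterol regulatory element bound by SREBPs, for CCAAT, the site of NF-Y, and for GGGCGG, the GC box of Sp1, both being factors known to act with SREBPs. The windows of members held 102 matches in all. No matches of different motifs overlapped. The sterol element letters stood in 1 member window, that of Hmgcs1 (2.94% of the member windows against 1.24% of all 32851 windows). No other spelling of the element was searched, so a window without these letters may still hold a variant form. CCAAT stood in 22 member windows (64.7% against 37.4% of all windows) and the GC box in 26 (76.5% against 35.7%). By role, CCAAT was present for 4 of 5 regulators, 14 of 15 sterol enzymes and 3 of 6 fatty acid enzymes. The windows below are those of the single match to the sterol element and of 3 members whose genotypes did not overlap. Capitals mark the sterol element and CCAAT or its reverse complement ATTGG.
Hmgcs1, chr13:119690101-119690400, plus strand: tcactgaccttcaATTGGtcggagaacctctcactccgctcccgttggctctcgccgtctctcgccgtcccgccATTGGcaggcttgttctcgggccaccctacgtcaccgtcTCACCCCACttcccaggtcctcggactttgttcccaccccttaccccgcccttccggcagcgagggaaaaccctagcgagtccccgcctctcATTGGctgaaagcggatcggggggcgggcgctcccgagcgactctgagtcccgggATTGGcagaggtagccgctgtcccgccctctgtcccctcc
Insig1, chr5:28071162-28071461, plus strand: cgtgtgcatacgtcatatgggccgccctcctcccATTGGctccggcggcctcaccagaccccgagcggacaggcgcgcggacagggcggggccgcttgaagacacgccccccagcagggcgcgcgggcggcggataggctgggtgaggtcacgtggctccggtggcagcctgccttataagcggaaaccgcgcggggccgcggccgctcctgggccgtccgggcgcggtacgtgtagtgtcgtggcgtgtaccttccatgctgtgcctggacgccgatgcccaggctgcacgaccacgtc
Cyp51, chr5:4104648-4104947, minus strand: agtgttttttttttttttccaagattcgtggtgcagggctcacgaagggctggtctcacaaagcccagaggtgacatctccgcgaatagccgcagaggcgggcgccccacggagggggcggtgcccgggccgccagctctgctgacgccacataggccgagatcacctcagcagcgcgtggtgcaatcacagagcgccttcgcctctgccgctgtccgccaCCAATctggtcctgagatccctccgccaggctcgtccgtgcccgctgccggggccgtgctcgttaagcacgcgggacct
Mvk, chr5:114444019-114444318, plus strand: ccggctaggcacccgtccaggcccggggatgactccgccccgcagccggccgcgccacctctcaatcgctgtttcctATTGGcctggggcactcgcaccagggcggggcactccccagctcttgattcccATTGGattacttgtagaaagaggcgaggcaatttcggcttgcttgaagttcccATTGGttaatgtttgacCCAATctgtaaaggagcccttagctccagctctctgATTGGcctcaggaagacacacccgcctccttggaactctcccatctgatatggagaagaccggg
In the Hmgcs1 window the sterol element begins 137 bases before the start site and 4 CCAAT matches are present. The Mvk window holds 5 CCAAT matches, the Insig1 and Cyp51 windows 1 each. These matches describe letters, and nothing about binding was measured.

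Among the 9 fatty acid enzymes 0 passed, 4 estimates lay above 0 and 5 below, and the median was -0.0077 on the log2 scale. Acly had 685, 660 and 715 CPM in Prl2-/- and 658, 712 and 702 CPM in Prl2+/+, a log2 ratio of -0.0077 ± 0.058 (SE), at an edgeR adjusted p of 0.982. Acss2, which makes acetyl-CoA from acetate in the cytosol and nucleus (chromosome 2, 155518043 to 155562743, plus strand), had 23.6, 26.0 and 27.4 CPM in Prl2-/- and 29.9, 30.4 and 28.3 CPM in Prl2+/+. Its genotypes did not overlap, and its log2 ratio of -0.20 ± 0.084 was the largest in size among the 33, with an unadjusted p of 0.0479 and an adjusted p of 0.899 in edgeR. An antisense transcript, Acss2os, and the neighbour Ggt7 overlap Acss2 on the other strand. Acaca, Fasn and Elovl6 had log2 ratios of -0.046 ± 0.141, 0.14 ± 0.124 and 0.072 ± 0.088.

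The desaturase pairs were steady in 3 of their 4 members. Scd2 was the most constant member of all: 352, 359 and 346 CPM in Prl2-/- and 357, 352 and 346 CPM in Prl2+/+, with averages of 352 ± 6.87 CPM for Prl2-/- and 352 ± 5.47 CPM for Prl2+/+ (SD, n = 3 each). For Scd2 the estimate was 0.0025 ± 0.046 (SE) on the log2 scale, with a 95% interval from -0.11 to 0.11 (edgeR adjusted p = 0.992). Scd1, the paralogue best known from liver and fat, had only 36, 61 and 46 counts in Prl2-/- and 76, 41 and 11 counts in Prl2+/+. Its log2 ratio of -0.080 ± 0.663 had the widest interval of any member, and Prl2+/+ libraries held both its highest and its lowest value. Per length Scd2 exceeded Scd1 by 110- to 722-fold. A Scd1 transcript and Scd2 share 623 bases at 95.5% identity, and the share of Scd1 counts from Scd2 reads was not tested. Fads1, the delta-5 desaturase, had 107, 108 and 102 CPM in Prl2-/- and 99.4, 103 and 96.9 CPM in Prl2+/+. Fads2, the delta-6 desaturase, had 59.7, 54.4 and 50.2 CPM in Prl2-/- and 59.4, 56.7 and 58.5 CPM in Prl2+/+. These neighbouring genes on chromosome 19 had log2 ratios of 0.085 ± 0.058 for Fads1 and -0.087 ± 0.077 for Fads2 (edgeR adjusted p = 0.899 for both).

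The 5 members with the widest range over the 6 libraries were Scd1 (6.78-fold), Fasn (1.48-fold), Dhcr7 (1.42-fold), Acaca (1.4-fold) and Sc5d (1.37-fold). Sc5d, the sterol C5-desaturase, had 56.3, 70.0 and 60.2 CPM in Prl2-/- replicates 1 to 3 and 77.0, 66.9 and 64.4 CPM in Prl2+/+ replicates 1 to 3. It was highest in Prl2+/+ replicate 1, followed by Prl2-/- replicate 2, the 2 libraries with the most hepatoblast transcripts, and lowest in Prl2-/- replicate 1, the library with the fewest. Scd1 was highest in the same 2 libraries, with 2.05 CPM in Prl2-/- replicate 2 and 2.88 CPM in Prl2+/+ replicate 1. Fasn had 625, 498 and 502 CPM in Prl2-/- and 423, 529 and 521 CPM in Prl2+/+. Dhcr7, a late reductase of cholesterol synthesis, had 82.2, 74.8 and 69.1 CPM in Prl2-/- and 57.9, 71.6 and 75.0 CPM in Prl2+/+. For both, Prl2-/- replicate 1 had the top value and Prl2+/+ replicate 1 the bottom one. By rising hepatoblast sum, the 4 libraries in between were Prl2+/+ replicate 3, Prl2-/- replicate 3, Prl2+/+ replicate 2 and Prl2-/- replicate 2. In that order Fasn had 521, 502, 529 and 498 CPM, and Dhcr7 had 75.0, 69.1, 71.6 and 74.8 CPM. Acaca had 33.1, 23.6 and 26.5 CPM in Prl2-/- and 29.9, 25.7 and 30.4 CPM in Prl2+/+. B cell markers, whose sums are given above, were highest in Prl2-/- replicate 1, where Acaca and Fasn were highest, and lowest in Prl2-/- replicate 2, where Acaca was lowest. The part of other cell types in these values was not tested. A fit with the hepatoblast marker level as a covariate tested genotype alone, and 0 of the 33 members passed in it.

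**Figure D5:**
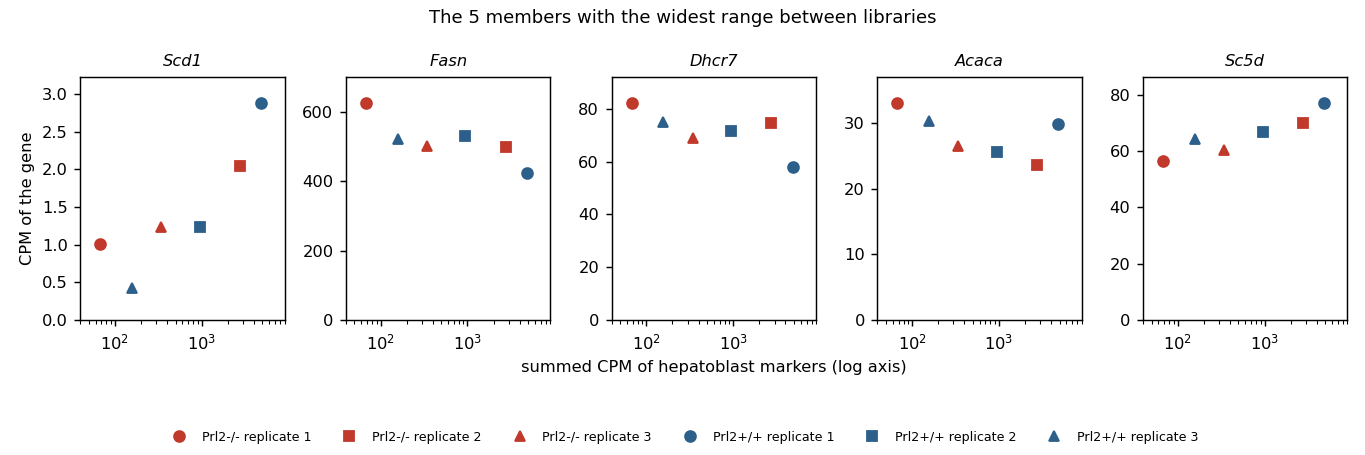
CPM (y axis, from 0) of the 5 members with the widest range, against the summed CPM of the hepatoblast markers (x axis, log scale) in each library; red is Prl2-/-, blue is Prl2+/+. Scd1 and Sc5d have their highest values, 2.88 and 77.0 CPM, in the library richest in hepatoblast markers, where Fasn and Dhcr7 have their lowest.

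Prl2-/- replicate 1 had the lowest level of 10 of the 33 members, 8 of them sterol enzymes, and the highest level of 8. Prl2+/+ replicate 1 had the lowest level of 11 members and the highest of 4. Prl2+/+ replicate 2 had the highest level of 9 and the lowest of 1.

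In 5 related lists 0 of 70 measured genes passed in edgeR. Genotypes did not overlap for 7 of the 70, or 10%, against 11.1% of all genes tested; 6 were higher in Prl2-/- (Dhdds, Elovl1, Acsl5, Mcat, Scarb1 and Echs1) and 1, Acsl4, was lower. Of the genes that cleave or degrade SREBPs, 7 of 8 listed were measured, with 4 estimates above 0 and 3 below. The smallest p was that of Mbtps1, the site-1 protease that makes the first cleavage, at a log2 ratio of 0.064 ± 0.061 (SE; edgeR adjusted p = 0.899). Of 12 genes that use isoprenoids for prenylation, dolichol or coenzyme Q, 8 estimates were above 0. Dhdds, a subunit of the dolichol-making prenyltransferase, had 93.2, 87.7 and 87.2 CPM in Prl2-/- and 69.4, 78.8 and 78.5 CPM in Prl2+/+, with no overlap. Its log2 ratio was 0.24 ± 0.072, with an unadjusted p of 0.0131 and an adjusted p of 0.899 in edgeR. Dhdds lies on chromosome 4 (133969057 to 134000864, minus strand) and lies 4.15 Mb from the start of Ptp4a2, and 8 of the 70 related genes are on that chromosome. None of the 33 members lies on chromosome 4, the chromosome of the targeted gene.

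Other acyl chain genes, sterol transport genes and fatty acid oxidation genes gave 0 of 18, 0 of 14 and 0 of 19 past the threshold. Their median log2 ratios were -0.015, -0.0064 and 0.017. The smallest p in each was that of Mcat, the transferase of mitochondrial fatty acid synthesis, at 0.28 ± 0.102 (SE), Scarb1, a lipoprotein receptor, at 0.14 ± 0.060, and Acads, the short-chain acyl-CoA dehydrogenase, at 0.17 ± 0.080 (edgeR adjusted p = 0.899 for each). Scarb1 had 326, 328 and 329 CPM in Prl2-/- and 280, 318 and 293 CPM in Prl2+/+, with no overlap. Mcat had 80.1, 62.9 and 64.9 CPM in Prl2-/- and 55.6, 59.0 and 56.2 CPM in Prl2+/+, also with no overlap. Acsl4, which activates long-chain fatty acids, had 43.8, 52.0 and 51.2 CPM in Prl2-/- and 68.6, 54.1 and 58.9 CPM in Prl2+/+, at a log2 ratio of -0.30 ± 0.111 and an unadjusted p of 0.0294 in edgeR. Acads had 86.8, 78.9 and 81.5 CPM in Prl2-/- and 70.2, 80.1 and 68.9 CPM in Prl2+/+, and its genotypes overlapped.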

How the data were processed

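RNA of fetal liver cells from 3 Prl2-/- and 3 Prl2+/+ samples was turned into cDNA (1 ng of total RNA) with the SMART-Seq v4 kit and sequenced after Nextera XT library construction, per the labels' protocols; these kits do not mark strand. Reads were handled with STAR and featureCounts, per the submitters' processing notes. Neither their versions nor the genome build is stated; counting options were likewise not given in the sources used here. What the authors deposited are unnormalized counts for each gene, next to its exon length, per the file headers. Every gene in the table reached 0.231 CPM in at least 3 libraries, so weakly expressed genes were not analysed here. All 33 members overlapped their position in GENCODE M21, so coordinates are given on GRCm38.

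Counts were tested with edgeR 4.0.16 in R 4.3.3: filterByExpr (12576 genes left), TMM factors of 0.991 to 1.01, and a quasi-likelihood test between the genotypes using the 6 libraries, adjusted by Benjamini-Hochberg over all genes, called at 0.05. Log2 ratios put Prl2-/- on top; each SE comes from the estimate and its F statistic, and 95% intervals use the test's degrees of freedom. The workflow was tested on simulated data, drawn with less spread between libraries than the common estimate for these data. That test therefore does not give the power of the fit here. No pair of libraries agreed within sampling noise (chi-square per gene of at least 19.6). BLAST of member transcripts against GENCODE M21 transcripts (at least 95% identity over 300 bases) found processed pseudogenes of 5 members (Acaca, Elovl6, Fdft1, Fdps and Idi1) and the gene Acat3 beside Acat2; counts of these members are uncertain to that extent.

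Values of every library are given for members with no overlap between genotypes, for the smallest p and the highest RPKM in each role and for the paralogue pairs; the variable members Sc5d, Dhcr7, Acaca and Fasn and other examples were chosen after their values were seen. The members and lists were chosen with earlier results of these data known. Settings varied were the scaling, the low-count filter, DESeq2 1.42.0, limma-voom (limma 3.58.1), the likelihood ratio test, the replicate number as a block, a hepatoblast covariate and each library left out.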

Additional observations from a re-analysis of the deposited data

How the results depend on the processing

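Under all 16 alternatives 0 of the 33 members and 0 of the related genes passed, with member adjusted p of at least 0.775 and 0 to 3 members at an unadjusted p under 0.05. Over the whole table the count of called genes, 5, was 36 with DESeq2, 21 with the edgeR likelihood ratio test, 1 with the replicate block, 1 without both hepatoblast-rich libraries (Prl2+/+ replicate 1 and Prl2-/- replicate 2), and 3 to 4 without 1 library. Without both hepatoblast-rich libraries, which leaves 2 per genotype, the median log2 fold change was -0.0625 for regulators and -0.0782 for sterol enzymes. Without 1 library it ran from -0.0464 to 0.0457 for regulators, from -0.0779 to 0.0133 for sterol enzymes and from -0.0074 to 0.0192 for fatty acid enzymes. Of the 3 members at an unadjusted p under 0.05, 0 stayed there with the likelihood ratio test or with the replicate block. Nor did any stay without both hepatoblast-rich libraries, without Prl2+/+ replicate 2 or without Prl2+/+ replicate 3. Only Insig1 of the 3 stayed with upper quartile scaling, limma-voom or the hepatoblast covariate. Stard4 ran from -0.131 to -0.0493 without 1 library.

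Estimates close to 0 changed sign, none of them called. Scd1 was at 0.20 with limma-voom, 0.25 with the replicate block, 0.59 with the hepatoblast covariate and 0.43 without both hepatoblast-rich libraries, and ran from -0.52 to 0.77 without 1 library. Scd2 was at -0.0016 with a minimum of 1 CPM and -0.0003 without both hepatoblast-rich libraries, and ran from -0.0126 to 0.0162 without 1 library. Srebf1 was at -0.0225 without both hepatoblast-rich libraries. Without 1 library it ran from -0.0176 to 0.0715, Srebf2 from -0.0944 to 0.0198, Fdps from -0.101 to 0.0025 and Acly from -0.0413 to 0.0192. The causes were not tested. The replicate numbers did not pair the libraries: deviations of same-numbered libraries correlated at -0.64, 0.21 and 0.17, and Prl2-/- replicate 1 was closest to Prl2+/+ replicate 3, at 0.74. The block called 0 members. The count of members with no overlap under other scalings was chosen after seeing the data. Scd1 had 11 to 76 counts per library and all other members at least 185.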

Other observations

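Me1, malic enzyme, which supplies NADPH for fatty acid synthesis, had 3.38, 17.7 and 5.87 CPM in Prl2-/- replicates 1 to 3 and 30.9, 11.6 and 5.26 CPM in Prl2+/+ replicates 1 to 3. Abca1, the transporter that exports cholesterol from cells, had 5.09, 8.19 and 3.87 CPM in Prl2-/- and 24.1, 5.8 and 2.63 CPM in Prl2+/+. For both genes, picked after their values were seen, Prl2+/+ replicate 1 was highest and Prl2-/- replicate 2 next, and these were also the libraries with the most hepatoblast transcripts, with 2747 summed CPM in Prl2-/- replicate 2 and 4838 in Prl2+/+ replicate 1. Neither passed in edgeR, with log2 fold changes of -0.83 ± 0.794 (SE) for Me1 and -0.92 ± 0.773 for Abca1 and an adjusted p of 0.899 for both.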
